A study of Caenorhabditis elegans with 4 samples.

Results

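Chromosome III carried 587 of the 2720 MRE-11 peaks in the series-wide list, and these are the regions described here. They were taken by sequence name alone, as every listed peak on III. The list of ChIP replicate 1 placed 511 of its 2471 peaks on III and the list of ChIP replicate 2 placed 290 of its 1294 there. The peaks came from chromatin immunoprecipitation followed by sequencing (ChIP-seq), which recovers the DNA bound by a chosen protein, with a rabbit polyclonal antibody against MRE-11. Both ChIP libraries, and the 2 input libraries of unselected chromatin, were made from Caenorhabditis elegans hermaphrodites of strain fem-2(b245), with the mutation itself on chromosome III, kept at 20 °C. All of them share the same crosslinking, with 20 min of the crosslinker EGS and 10 min of EGS with formaldehyde. The labels list germline-containing young adults, whereas the growth protocol speaks of gravid worms, and whole worms were ground, so that nuclei of germline and soma entered together. No strain without the fem-2 mutation is part of the series, and the labels do not state what germ cells the worms held.

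MRE-11 is the nuclease of a complex with RAD-50 that binds broken DNA ends and trims them so that the break can be repaired by recombination. In the worm germline the protein is known for its part in meiosis, where programmed breaks are made and repaired as homologous chromosomes pair. Worm chromosomes attach to the spindle along their whole length, and each carries near one end a pairing centre bound by zinc-finger proteins, ZIM-1 in the case of III. Recombination is frequent on the arms of the autosomes and rare in their gene-rich centres. The gene fem-2, mutated in these worms, encodes a protein phosphatase that promotes male development and the making of sperm in hermaphrodites, and b245 is known as a temperature-sensitive allele.

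The 2 ChIP libraries differed in how much was listed. On III, replicate 1 peaks covered 8.64% of the chromosome and replicate 2 peaks covered 5.90%. The series-wide peaks were narrower and covered 1.81%. Replicate scores on III ran from 50.5 to 3100 in replicate 1 and from 50.34 to 3100 in replicate 2, and series-wide scores ran from 1.3 to 50.58. Each score is the peak's own value from the authors' caller, its scale is not named, and the replicate and series-wide scores are not comparable. Scores of 3100 or more recurred, with 2 such peaks on III in each replicate. On X, 12 of 169 replicate 1 peaks and 19 of 51 replicate 2 peaks had them. Whether 3100 is a ceiling is not stated, so ranks and ratios at that value are uncertain. Read depth is unknown, no peak list of the inputs was used here, and a stretch with no listed peak is not one shown to lack MRE-11.

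Most series-wide peaks on III had a counterpart in both replicates. Of the 587 series-wide peaks, 373 (63.5%, 95% exact Clopper-Pearson interval 59.5 to 67.4%) overlapped a peak of each replicate by at least 1 bp, against 59.5% over the whole list. A further 180 (30.7%) overlapped replicate 1 only, 3 (0.51%) overlapped replicate 2 only and 31 (5.28%) overlapped neither. Over the whole list these shares were 34.3%, 0.26% and 5.96%. Replicate 1 alone therefore overlapped 94.2% of the series-wide peaks of III and replicate 2 alone 64.1%, against 93.8% and 59.7% over the whole list. The series-wide calls draw on the same experiment as the replicate lists, so these shares are a description.

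Support followed score and width. Series-wide peaks on III overlapped by both replicates had a median score of 11.9 and a median width of 417 bp. Those with replicate 1 only had a median score of 5.63 and a width of 255 bp, and those with neither had a score of 5.02 and a width of 186 bp. All 118 peaks of the highest score class on III, from 18.92 upwards, were overlapped by both replicates. The share was 77.8% for scores of 10.36 to 18.74, and between 39.3% and 52.1% in the 3 classes below. No peak of III with replicate 1 only scored above 18.22. On chromosomes I, II, IV and V such peaks reached 37.89 and peaks in neither replicate reached 26.34, so a high score did not ensure support across the list.

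**Figure D1:**
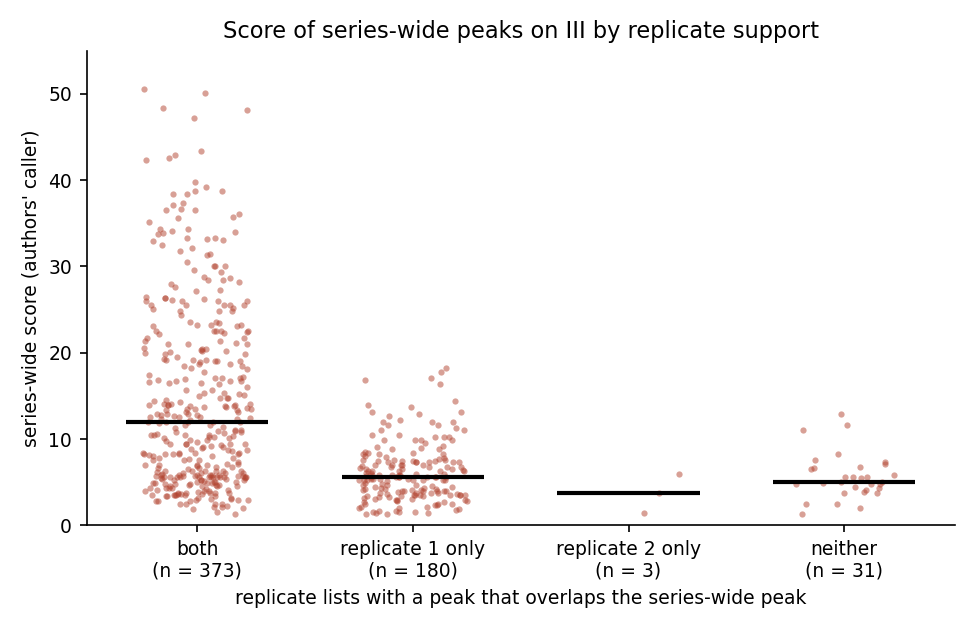
Series-wide score (vertical axis, the authors' caller's units) of each of the 587 peaks on III, in columns by which replicate lists overlap it; each point is a peak and each black line the median of its column. Scores above 18.22 occur only in the column of both replicates, whose median of 11.9 compares with 5.63 for replicate 1 only and 5.02 for neither.

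The replicates were then matched with each other on III. Of the 290 replicate 2 peaks, 287 (98.97%, 97.0 to 99.8%) had a replicate 1 peak at the same place, against 97.9% over the whole list. Of the 511 replicate 1 peaks, 290 (56.8%, 52.3 to 61.1%) had a replicate 2 peak, against 51.7% over the whole list. Matched replicate 1 peaks on III had a median score of 616 and a median width of 2254.5 bp, while the 221 unmatched ones had a median score of 127 and a width of 1481 bp. The matched share was 12.7% in the lowest of 5 score classes of replicate 1, 29.4% and 57.8% in the next, and 92.2% and 91.3% in the highest pair.

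**Figure D2:**
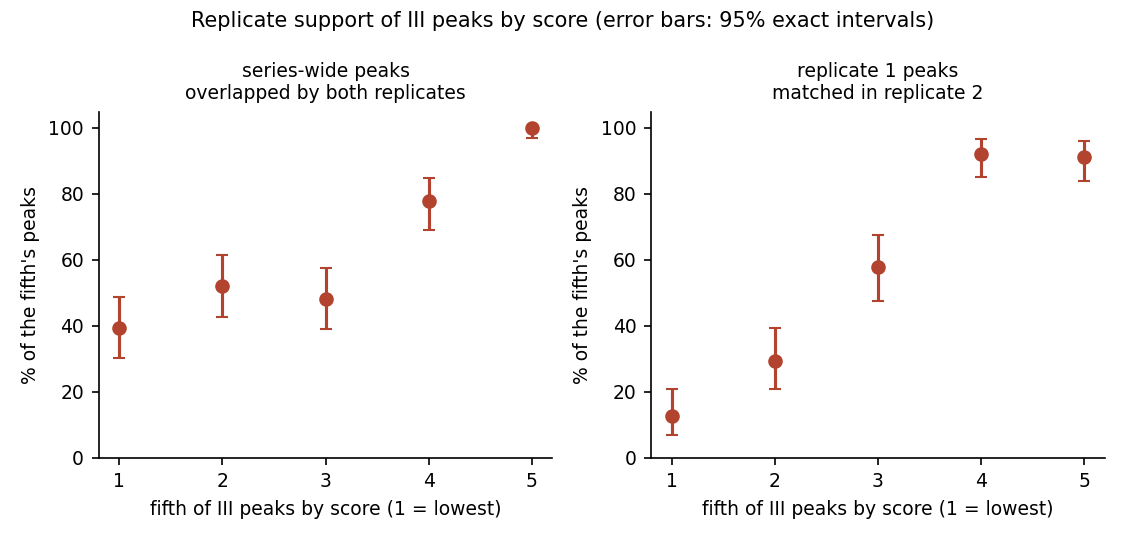
Share of III peaks (vertical axis, %) that were overlapped by both replicates (series-wide list, left) or matched in replicate 2 (replicate 1 list, right), in 5 score classes of equal size from lowest to highest; points are shares and bars are 95% exact intervals. The series-wide share is 39.3% in the lowest class and 100% in the highest, and the replicate 1 share is 12.7% in the lowest and 91.3% in the highest.

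Matched peaks lay close together, within the limit that the required overlap sets on their distance, and kept much of their order. Among 275 peaks on III that matched exactly 1 peak in each direction, the midpoints were 179 bp apart at the median and 1913 bp at most. Their median width was 2235 bp in replicate 1 and 2395 bp in replicate 2, and 147 of the 275 (53.5%) were wider in replicate 2. The replicate 2 score was the higher one in 52 of them (18.9%), and the median ratio of replicate 2 to replicate 1 score was 0.599. Across the 287 matched replicate 2 peaks on III, Spearman's rho of the scores was 0.82, and 0.81 without scores of 3100 or more. On the other autosomes rho was between 0.76 on II and 0.82 on I. These correlations run across peaks of the same libraries and are given as a description.

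**Figure D3:**
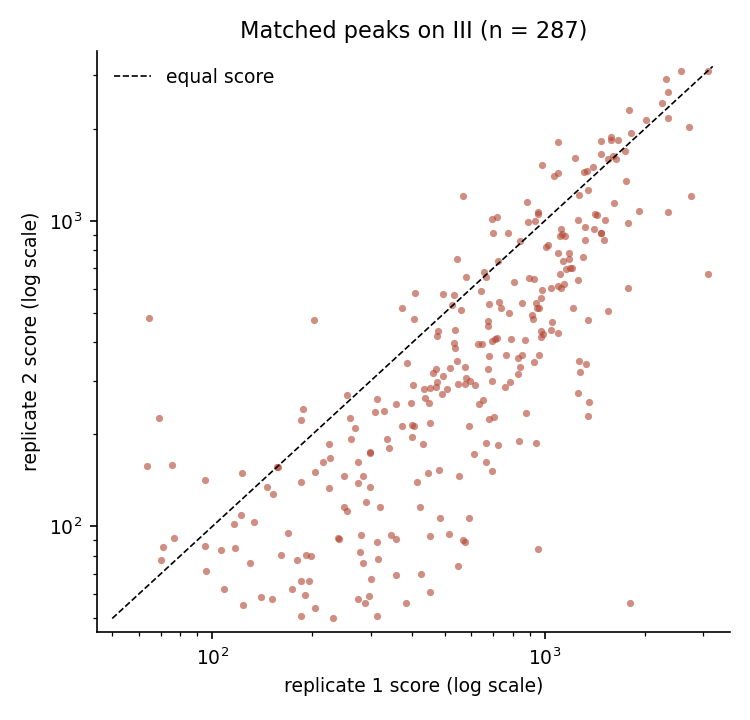
Replicate 2 score against replicate 1 score (both axes logarithmic, the authors' caller's units) for the 287 replicate 2 peaks on III with a replicate 1 match; each point is a matched pair and the dashed line marks equal scores. Most points lie below the line, with the replicate 2 score the lower one, and a few pairs stand far from it.

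A few matched pairs stood far from that relation. At III 424245 to 428439 the score was 1805.71 in replicate 1, and the overlapping replicate 2 peak at 424269 to 426696 scored 56.04. This stretch held 5 series-wide peaks, none above 8.38. In the other direction, the peak at III 834511 to 836521 scored 480.51 in replicate 2, while the replicate 1 peak that overlapped it, at 833327 to 834995, scored 64.41. These were the extreme ratios among the matched pairs on III, and they were chosen after their values were seen.

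The 10 strongest series-wide peaks on III lay on both arms and in the centre, and each was present in both replicates. The strongest, III 11036024 to 11036584, scored 50.58 series-wide, 1066.94 in replicate 1 and 1400.15 in replicate 2. It was only 561 bp wide, and the replicate peaks around it were also compact, with 1521 and 1499 bp. The next, III 3504636 to 3505564, scored 50.11, with 2711.24 in replicate 1 and 2023.03 in replicate 2. Here the replicate peaks were broad, with 5495 and 4607 bp. High series-wide scores thus stood on narrow as well as on broad replicate peaks.

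A pair of the strongest peaks lay close to the right end. III 13643354 to 13643999 scored 48.41 series-wide, with 1476.88 in replicate 1 and 1658.46 in replicate 2. III 12874161 to 12875150 scored 48.18, with 1738.66 and 1690.06 in replicates 1 and 2. On the left arm, III 1618575 to 1619415 scored 47.2 series-wide, 2349.73 in replicate 1 and 2170.53 in replicate 2. Also on the left arm, III 1201737 to 1202702 scored 42.94, with replicate scores of 1578.56 and 1874.33. In both replicates these 4 regions were far above the III medians of 297 (replicate 1) and 327 (replicate 2).

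The rest of the 10 were in the centre, with the exception of III 11581206 to 11581631 on the right arm. That peak scored 42.38 series-wide, 1109.56 in replicate 1 and 668.08 in replicate 2, the lowest replicate 2 score of the 10. In the centre, III 7207870 to 7208849 scored 43.36 and lay in replicate peaks of 2565.02 and 3100. III 6431429 to 6432188 scored 42.58, with 1309.9 in replicate 1 and 1440.34 in replicate 2. III 5152796 to 5153679 scored 39.79, with replicate scores of 1235.79 and 1603.42.

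Ranked by the replicates instead, the 10 strongest regions on III lay mostly in the centre. The first was III 7178204 to 7183017, which reached 3100 in both replicates and held 3 series-wide peaks with a highest score of 35.64. The next, III 7207049 to 7211068, scored 2565.02 in replicate 1 and 3100 in replicate 2, a tie with the first in replicate 2. III 5677537 to 5680880 scored 2320.77 and 2919.89, and III 8443845 to 8450240 scored 2348.16 and 2635.26 in replicates 1 and 2. Of the 10 regions with the best mean rank, 8 lay in the central part of III (the middle one of 3 equal parts), between 34.5% and 61.3% of its length, against 3 of the 10 strongest series-wide peaks. The other 2 were the left-arm regions around 3504636 and 1618575 named above. Only 3 of the 10 strongest series-wide peaks lay in regions of this second set. Of all III peaks, the central part held 39.9% in replicate 1 and 43.1% in replicate 2. At scores at or above the list median it held 40.3% and 42.4%. The central position was described for these 10 regions, and whether it extends to other strong peaks was not tested.

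The remaining regions of that set also scored high in both replicates, as the ranking by both scores requires. III 4751621 to 4755863 scored 2253.05 in replicate 1 and 2433.96 in replicate 2. III 6969511 to 6973823 scored 2009.14 and 2132.08, and III 5704020 to 5709252 scored 1786.63 and 2306.24. The tenth, III 8129129 to 8131423, scored 1820.53 and 1937.97 and differed by no more than 20 bp between the replicates at either edge. Its single series-wide peak, 8129525 to 8130939, filled 1415 bp of it and scored 33.77.

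The densest stretch for the replicates contained the first of these regions. III 7100001 to 7200000 held 10 replicate 1 peaks, 7 replicate 2 peaks and 14 series-wide peaks. The mean 100 kb window of III held 3.70 ± 1.96 (SD over 138 windows) replicate 1 peaks, 2.10 ± 1.42 replicate 2 peaks and 4.25 ± 2.79 series-wide peaks. Scores within that window were uneven. Next to the region at 3100, III 7121690 to 7124084 scored 1760.8 in replicate 1, and its replicate 2 match scored 1345.32. III 7188743 to 7190500 scored 693.51 in replicate 1, with a replicate 2 match of 405.57, and III 7197890 to 7199258 scored 91.94 in replicate 1 with no replicate 2 or series-wide peak. The widest replicate 2 peak of III, 7158793 to 7170927 with 12135 bp, also lay here and spanned 2 replicate 1 peaks.

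Other crowded windows differed between lists. Replicate 1 had 9 peaks in III 4900001 to 5000000 and 9 in III 6900001 to 7000000, where replicate 2 had 5 and 3. Replicate 2 had 6 peaks in III 4500001 to 4600000, where replicate 1 also had 6. The series-wide list had 16 peaks in III 13000001 to 13100000 and 16 in III 13500001 to 13600000, but replicate 1 had 4 and 3 peaks there and replicate 2 had 1 in each. In III 3800001 to 3900000 the 14 series-wide peaks went with 8 and 4 peaks in replicates 1 and 2.

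The right end of III was crowded in the series-wide list. Of its III peaks, 81 (13.8%, 11.1 to 16.9%) lay in the last 10% of the chromosome and 43 (7.33%, 5.35 to 9.74%) in the first 10%. On the other autosomes the last 10% held 8.69% of the peaks, between 5.97% on IV and 12.8% on II. In replicate 1 the last 10% of III held 51 peaks (9.98%), against 8.77% on the other autosomes. In replicate 2 it held 26 (8.97%), against 7.66%. Chromosome II was above III in both replicates, with 12.9% and 9.28%. The difference between III and the other autosomes at this end was seen in the data and was not tested.

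Of these 81 peaks, 25 lay inside 2 broad replicate 1 peaks. III 13583902 to 13599268, the widest replicate 1 peak of III with 15367 bp, scored 684.62 and was broken into 14 series-wide peaks of 214 to 1628 bp. III 13074421 to 13082467, with 8047 bp, scored 1348.79 and held 11 series-wide peaks. Neither overlapped a replicate 2 peak, and the series-wide scores inside them did not exceed 11.28 and 7.87. Of the 81 peaks in the last 10%, 34 (42.0%) were overlapped by both replicates, and none of those 34 was among the 25. Without the 25 peaks the last 10% held 56 of 562 (9.96%), a value chosen after the data were seen, with nothing removed from the other autosomes.

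The left end had a broad region too. III 321497 to 333155, with 11659 bp the next widest replicate 1 peak, scored 957.68 and held 6 series-wide peaks, among them the widest of III, 324518 to 328061 (3544 bp), 321839 to 324451 (2613 bp) and 330290 to 332172 (1883 bp). Their series-wide scores were only 12.24, 10.49 and 7.03. Replicate 2 had a shorter peak here, 323557 to 327885, with a score of 365.11, so that the peak at 330290 to 332172 lay in replicate 1 only. Next in width, 13595526 to 13597153 (1628 bp, score 6.63), belonged to the broad region near the right end. The remaining 6 of the 10 widest were in both replicates and scored 20.48 or more, as at III 5274020 to 5275611 (1592 bp), with 2352.14 in replicate 1 and 1070.79 in replicate 2.

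Most replicate peaks were not broken up in this way. Of the 511 replicate 1 peaks on III, 313 held 1 series-wide peak, 74 held 2, 22 held 3 or more and 102 held none. Their median scores were 297 with 1 series-wide peak, 959 with 2 or more and 93.5 with none. The share with 2 or more was 18.8% on III, against 16.6% on the other autosomes. Where a replicate 1 peak on III held 1 series-wide peak, the midpoints were 133 bp apart at the median, and the series-wide peak filled 22.2% of the replicate 1 width.

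**Figure D4:**
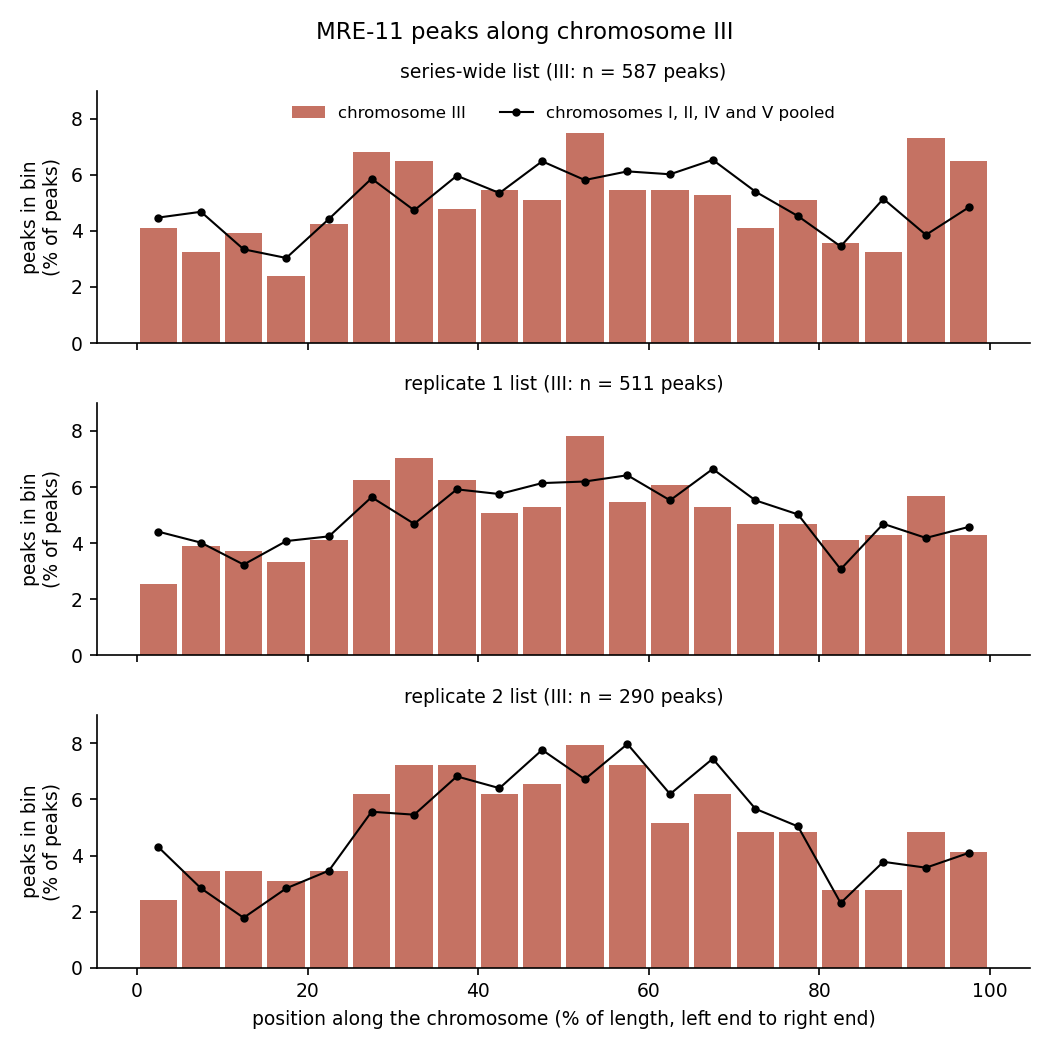
Share of peaks (vertical axis, % of the list's peaks on the chromosome or chromosomes) in 20 bins of 5% of the chromosome's length, from left to right end, for the series-wide, replicate 1 and replicate 2 lists; bars are III and the line is I, II, IV and V pooled. On III the series-wide bars reach 7.50% just right of the middle and 7.33% and 6.47% in the last 2 bins, while the last 2 bins of replicate 2 hold 4.83% and 4.14%.

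Over the whole of III, its ends included, the central part was the densest of 3 equal parts in all 3 lists. The other autosomes had central shares of peaks near those of III, given below. When the chromosome was divided into 3 equal parts, the left, central and right parts held 37.7, 47.3 and 42.9 series-wide peaks per Mb. The corresponding values were 32.0, 44.4 and 34.9 for replicate 1 and 18.1, 27.2 and 17.9 for replicate 2. In the last 10% of III, within the right part, the density was 58.8 series-wide, 37.0 in replicate 1 and 18.9 in replicate 2. The share of series-wide peaks overlapped by both replicates was 63.6% on the left, 71.0% in the centre and 55.3% on the right, the last part including the broad regions described above. Replicate 2 peaks were wider in the centre, with a median of 2632 bp, against 2041 bp on the left and 2327.5 bp on the right. The median replicate 2 score showed no such order, with 315, 320 and 352 from left to right.

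The first and the last series-wide peak of III were each present in both replicates. The first series-wide peak, III 86235 to 86626, scored 23.14, with 1474.97 in replicate 1 and 914.56 in replicate 2. The last, III 13770916 to 13771392, scored 15.25, with 538.6 and 439.78 in replicates 1 and 2. Between series-wide peaks the median gap was 13153 bp, and the longest, III 9145382 to 9331075, measured 185694 bp. On the other autosomes the median gap was 17016 bp and the longest 744719 bp. The next longest gaps on III were 12714032 to 12874160 (160129 bp), 2620351 to 2768357 (148007 bp), 6722504 to 6869244 (146741 bp) and 640907 to 783185 (142279 bp). Replicate peaks reached into these gaps from the flanks, but no replicate 2 peak lay wholly inside any of the 5. Replicate 1 had 1 peak wholly inside each of 2 of them, with scores of 149 (12714032 to 12874160) and 211 (2620351 to 2768357), and none in the other 3.

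Some strong replicate 1 peaks on III had no counterpart. III 2496435 to 2503518 scored 3067.27 in replicate 1, a value that only 2 peaks of III exceeded, and had neither a replicate 2 nor a series-wide peak. The same held for III 1016850 to 1021115 (score 2154.39) and III 1299254 to 1303514 (score 2027.66), all on the left arm. III 3894528 to 3898179 (score 1772.16) and III 13446447 to 13448990 (score 1690.05) had no replicate 2 peak but held 2 and 3 series-wide peaks. The strongest of those without a series-wide peak, III 2077204 to 2083073, did have a replicate 2 peak. It scored 3100 in replicate 1 and 670.03 in replicate 2, over nearly the same 5870 and 5947 bp. Among the 85 replicate 1 peaks on III with a score of 1000 or more, 6 (7.06%, 2.63 to 14.7%) lacked a series-wide peak, against 9 of 238 (3.78%, 1.74 to 7.06%) on the other autosomes. In the same set, 8 of 85 (9.41%, 4.15 to 17.7%) on III were unmatched in replicate 2, against 27 of 238 (11.3%, 7.61 to 16.1%) on the other autosomes. These differences were seen in the data, ran in opposite directions and were not tested.

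Fewer peaks lacked support in the other direction. The 3 replicate 2 peaks of III without a replicate 1 match were 5541560 to 5543501 (score 137.84), 11930977 to 11932470 (score 122.41) and 6449540 to 6452384 (score 57.35). The first held a series-wide peak, at 5542984 to 5543129, with a score of 1.43. The other series-wide peaks with replicate 2 only were 835794 to 836022 (score 3.73) and 7153848 to 7154015 (score 5.94). Among the 31 in neither replicate the strongest were III 8335411 to 8336025 (score 12.86), 12528016 to 12528207 (score 11.65) and 9408289 to 9408459 (score 11.06). They were followed by III 1925241 to 1925436 (score 8.32) and 13687154 to 13687328 (score 7.53).

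III was then set against chromosomes I, II, IV and V. III was singled out for its density, which is therefore given with no test. The series-wide density was 42.6 peaks per Mb on III and 29.1 ± 7.07 on the other autosomes (SD, n = 4 chromosomes). In replicate 1 it was 37.1 on III and 26.8 ± 6.05 on the others, and in replicate 2 it was 21.1 on III and 14.3 ± 4.08 on the others. The nearest autosome was I, with 36.2, 33.7 and 18.4. Relative to the other autosomes pooled, the density on III was 1.50 times as high series-wide, 1.42 in replicate 1 and 1.52 in replicate 2. In base pairs covered the ratios were 1.59, 1.54 and 1.66.

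Median scores on III were close to those of the other autosomes, while its median widths were the largest or nearly so. The median series-wide score was 7.78 on III, against 7.80 ± 0.37 (SD over 4 chromosome medians). In replicate 1 it was 297, against 273 ± 43.75, and in replicate 2 it was 327, against 290 ± 60.8. The median series-wide width was 320 bp on III, against 301 ± 9.95 bp, and this was the largest of the 5 autosomes. The replicate 1 width of 1880 bp fell just under the 1886 bp of IV, and the replicate 2 width of 2416 bp was above the 2386 bp of IV.

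With all listed peaks, no difference in matching or position between III and the other autosomes passed the test. The share of series-wide peaks overlapped by both replicates was 63.5% on III and 60.7% on the others, a difference of 2.88 percentage points (95% interval -1.64 to 7.26, Fisher's exact p = 0.227). For replicate 1 the matched share was 56.8% on III and 52.5% on the others (difference 4.27 points, -0.64 to 9.09, Fisher's exact p = 0.0971). For replicate 2 it was 98.97% on III and 97.7% on the others (difference 1.27 points, -0.84 to 2.62, Fisher's exact p = 0.234). Chromosome V, the lowest autosome in the first 2 of these shares, stood at 52.6% and 44.8%, and the others were between 54.1% and 64.1%.

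The share of peaks in the central part was also within these limits. It was 36.97% on III and 39.1% on the others in the series-wide list (difference -2.16 points, -6.55 to 2.36, Fisher's exact p = 0.358). In replicate 1 the shares were 39.9% on III and 39.5% on the others (0.39 points, -4.35 to 5.24, Fisher's exact p = 0.878), and in replicate 2 they were 43.1% and 46.5% (-3.38 points, -9.79 to 3.18, Fisher's exact p = 0.314). None of the 6 two-sided tests passed, and the smallest Benjamini-Hochberg adjusted p of these Fisher's exact tests was 0.43. These tests take peaks as independent and say nothing about spread between libraries or worm cultures.

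**Figure D5:**
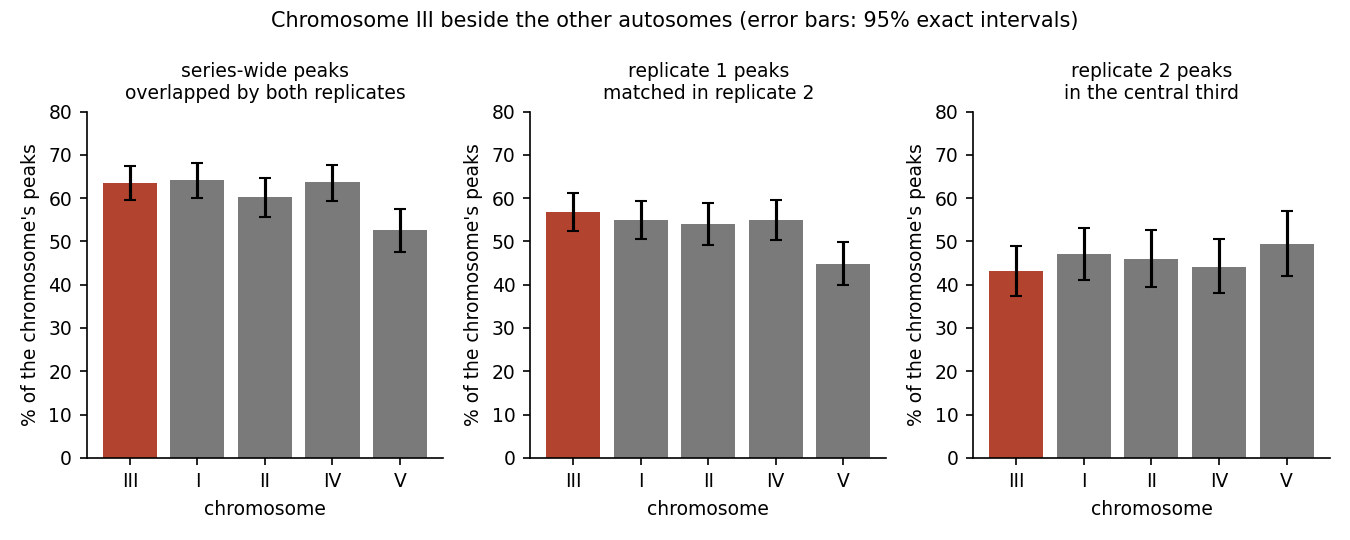
Share of each autosome's peaks (vertical axis, %) that were overlapped by both replicates (series-wide list, left), matched in replicate 2 (replicate 1 list, middle) or in the central part (replicate 2 list, right); bars are shares and error bars are 95% exact intervals. The III bars of 63.5%, 56.8% and 43.1% have intervals that overlap those of I, II and IV, and V is lower in the first 2 panels.

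Limited to series-wide peaks with a score at or above the median of their list, the share overlapped by both replicates was 83.1% on III and 75.7% on the other autosomes (difference 7.42 points, Fisher's exact p = 0.00705, adjusted p = 0.0423 over the 6 tests). This was the only alternative of 21 to pass, the adjusted p does not count the other alternatives, and series-wide peaks inside the same replicate peak are not independent, so the value is not taken as a difference shown for III. The share of peaks with a near neighbour depends on density, for which III was picked. On III, 334 of 587 series-wide peaks (56.9%, 52.8 to 60.9%) had another within 5 kb. The other autosomes pooled had 50.8%, from 45.9% on V to 53.9% on IV. In the replicates these shares were 37.0% against 37.5% and 24.1% against 21.0%. With series-wide peaks in the same replicate 1 peak counted as 1, the III list fell to 443 regions, of which 26.6% had a neighbour within 5 kb, against 21.6% on the other autosomes. No test was made of these shares.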

How the data were processed

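MRE-11 ChIP-seq peaks of 2 ChIP libraries were analysed, and the 2 input libraries contributed no values. The deposited files give each peak a position and a score made by the authors' caller, MACS for the replicate lists and MACS v2 for the series-wide list, per the file contents. Coordinates are on WormBase WS220 per the file headers, and the submitters' processing notes name ce10 and BWA. Pooling of replicates and the control input are not stated. The gene table at hand is of another assembly, so peaks were assigned no gene and no sequence is shown.

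Peaks on III were taken by sequence name. Chromosome length was set to the largest end of any listed peak. A match required 1 bp of overlap. Shares carry 95% Clopper-Pearson intervals, differences carry Newcombe intervals, and all cover counting of peaks only. The 6 comparisons with chromosomes I, II, IV and V used two-sided Fisher's exact tests, adjusted together by Benjamini-Hochberg at 0.05. Fixed rules named the 10 strongest and widest series-wide peaks and the 10 best regions by mean replicate rank. They also named the 5 strongest peaks without support, the 3 densest windows, the 5 longest gaps and the end peaks. Broad replicate 1 peaks, pairs with extreme score ratios and the strongest replicate 1 peak without a series-wide peak were named outside these rules. Those were picked after the data were seen. III and these rules were chosen with earlier results of these data known. The labels do not say whether replicates were separate cultures. Python 3.11.15, numpy 2.4.6, pandas 2.3.3, scipy 1.17.1 and matplotlib 3.10.9 were used, and the interval functions were tested on simulated data.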

Additional observations from a re-analysis of the deposited data

How the results depend on the processing

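No paired analysis was possible because only ChIP lists entered the comparisons. In 39 of 63 alternatives, results kept their direction and side of the threshold or stayed within the interval of the value as reported. Removing either replicate from the mean density ratio cannot move it beyond its SD, so these alternatives count among the 39 by construction. Among the 21 alternatives of the 6 tests, 1 passed: at scores at or above the list median the both-replicate difference of III was 7.42 points. With X among the other chromosomes it was 5.17 points (Fisher's exact p = 0.0256, adjusted p = 0.154) and the replicate 1 matched difference was 6.34 points (Fisher's exact p = 0.0112, adjusted p = 0.0674). The sign turned in 3, none past the threshold. With replicate 2 left out, the difference in the share overlapped by replicate 1 was -0.45 points. With replicate 1 left out, the difference for replicate 2 was 3.23 points. Both are shares of 1 replicate, so they do not compare directly with the both-replicate difference. The replicate 2 matched difference was -1.49 points under 50% reciprocal overlap. The series-wide central difference was 1.53 points at scores at or above the median. The cause was not tested.

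The both-replicate share of III was 83.1% at scores at or above the median. With 1 replicate left out, the share overlapped by the other was 64.1% (replicate 2) and 94.2% (replicate 1). Under 50% reciprocal overlap, matched shares were 51.9% (replicate 1) and 91.4% (replicate 2). In the middle 50% of III lay 56.4% of series-wide, 59.3% of replicate 1 and 64.8% of replicate 2 peaks, because this zone is larger. With X among the other chromosomes the density ratios were 1.73, 1.63 and 1.81 (series-wide, replicates 1 and 2). The neighbour share of III was 42.4% within 2 kb (40.9% on the other autosomes) and 85.7% within 20 kb (76.2%). It was 26.6% with 1 region per replicate 1 peak (21.6%) and 27.7% at scores at or above the median (27.2%). Matched peaks had median scores of 11.94 (series-wide) and 616 (replicate 1) and median widths of 417 and 2254.5 bp. The share in the last 10% of III was 9.96% without the 25 peaks of the broad replicate 1 peaks and 10.4% with 1 region per replicate 1 peak, both chosen after seeing the data. Read depth is unknown and limits what an absent peak can say.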
